A study of Mus musculus with 10 samples.

Results

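Interferon-stimulated genes are described here across 10 RNA libraries of mouse gastrocnemius, a large calf muscle. The set is 37 genes chosen by name as responsive to interferon, with earlier results of these data known. Of these, 36 are among the 21956 genes of the deposited table, each on 1 row, and Mx2 is not analysed here. All 36 passed the filter on low counts, which left 13404 genes for testing. Poly(A) RNA was sequenced in 5 Sham libraries and 5 HLI libraries, and the labels give the genotype WT to all 10, and the treatment label, Sham or HLI, is what distinguishes the groups. HLI is read here as hindlimb ischaemia. The labels leave the abbreviation unexplained and state no strain, age or time after the operation. The series title concerns endothelial FGF13 and angiogenesis, and the design contrasts muscle RNA between the 2 conditions. Separate animals are not stated for the samples of a group, so each p-value rests on a between-sample spread that may be technical.

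Interferons are cytokines that cells release when they sense foreign or misplaced nucleic acid, and that lymphocytes release when activated. Type I interferons bind the receptor made of IFNAR1 and IFNAR2 and lead to a complex that holds STAT2 and IRF9 and binds a DNA element called ISRE. Interferon gamma binds IFNGR1 and IFNGR2 and acts largely through a different element called GAS. The induced genes encode sensors, antiviral effectors, chemokines and further transcription factors. In injured muscle they can be expressed by infiltrating leukocytes and by resident cells alike, and in a bulk sample fewer cells of a type and less RNA per cell cannot be told apart.

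Promoters of the set carried the ISRE core far more often than promoters at large. RefSeq promoter windows (GRCm38.p6, 250 bases before to 50 bases after the gene start) were at hand for 29 of the 36 measured members, with none matched for Usp18, Mx1, Zbp1, Parp9, Parp14, Ifi27 and Rtp4. On either strand, the ISRE core (GAAA, any 2 bases, then GAAA) was found in 17 of the 29 members (58.6%), against 3.99% of all 27025 genes with a window and 3.44% of all 32851 windows. The GAS core TTCNNNGAA, which reads the same on both strands, was found in 10 of the 29 (34.5%), against 9.55% of all genes and 8.30% of all windows. A match describes letters in a window and is not a measured binding site.

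The sequences below show how these cores lie in members whose values are given later. Each is printed in the direction of its gene, in lower case with the matched cores in capitals, and positions count from the gene start, with -1 as the base before it. In Stat2, Ifit1 and Gbp3 the core lies on the opposite strand and so reads TTTC, 2 bases, TTTC.
Stat2 (chr10:128270261-128270300, plus strand, -237 to -198): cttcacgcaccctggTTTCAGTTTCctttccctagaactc
Isg15 (chr4:156200860-156200911, minus strand, -93 to -42): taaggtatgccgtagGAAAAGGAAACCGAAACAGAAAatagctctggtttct
Ifit1 (chr19:34640770-34640828, plus strand, -119 to -61): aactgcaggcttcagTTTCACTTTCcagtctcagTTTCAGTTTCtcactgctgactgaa
Bst2 (chr8:71537572-71537617, minus strand, -145 to -100): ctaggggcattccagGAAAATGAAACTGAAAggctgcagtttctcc
Gbp3 (chr3:142559984-142560029, plus strand, -60 to -15): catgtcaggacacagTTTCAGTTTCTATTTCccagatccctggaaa
Irgm1 (chr11:48871421-48871465, minus strand, -45 to -1): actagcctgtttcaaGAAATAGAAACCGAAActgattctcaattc
Irf1 (chr11:53769909-53769947, plus strand, -105 to -67): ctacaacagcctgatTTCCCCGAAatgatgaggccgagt

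Isg15 held 3 overlapping ISRE cores in 1 run, and Bst2, Gbp3 and Irgm1 held 2 overlapping cores each. Ifit1 held 2 separate cores. In Bst2 the ISRE cores share 3 bases with a GAS core. Irf1, chosen for display after its match was seen, held a GAS core and no ISRE core in its windows, whereas Igtp, Gbp7, Oas1a, Bst2, Ifitm3 and Eif2ak2 held both kinds. The log2 fold changes of HLI over Sham described below had a median of 0.53 in the 17 members with an ISRE core and of 0.54 in the 12 without one.

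**Figure D1:**
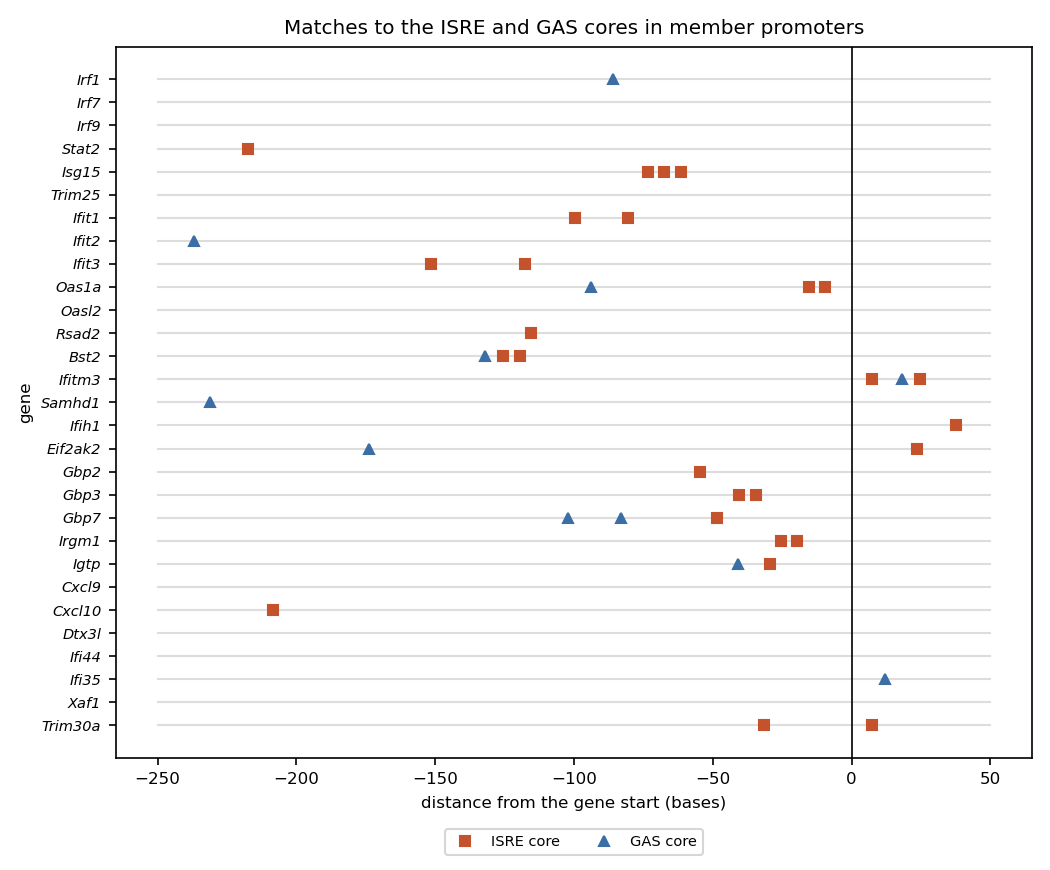
Positions of ISRE cores (squares) and GAS cores (triangles) in the RefSeq promoter windows of 29 members, one line per gene. The x axis is the distance in bases from the gene start. Of the 17 members with an ISRE core, 14 have one wholly before the gene start, and Ifitm3, Ifih1 and Eif2ak2 have theirs after it.

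Several facts of the libraries bear on all results. Library totals of estimated counts ran from 16556385 to 22136299. The labelled tissue showed its markers, with 10 of 10 skeletal muscle fibre genes detected at a summed 133053 to 175713 CPM (counts per 1000000 counts of the library, TMM-scaled) in Sham and 58476 to 155777 CPM in HLI, where HLI replicate 3 was lowest. Sham replicate 1 stood apart from its group in Myh3, the embryonic myosin gene of newly formed fibres, with 164 CPM against 3.97 to 5.63 CPM in the other Sham libraries. HLI replicate 1 was low in that gene, at 7.71 CPM, while HLI replicates 2 to 5 had 80.0 to 442 CPM. All 10 libraries were kept under their labels, and counts at an unadjusted p are also given with single libraries left out.

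As a set, the interferon-stimulated genes stood higher in HLI than in Sham, yet none of them passed the test. In the edgeR quasi-likelihood fit over all genes, 0 of 36 had a Benjamini-Hochberg adjusted p under 0.05, as did 0% of all 13404 genes, and the smallest adjusted p of any gene was 0.29. At an unadjusted p under 0.05, 17 of 36 members (47.2%) were higher and 0 were lower, against 10.7% and 6.15% of all genes tested. Fold changes were above 0 in 34 of 36 members, against 53.8% of all genes, and their median on the log2 scale was 0.53, against 0.029 for all genes tested. By DESeq2, 1 member, Trim25, was called higher, with 0.265% of all genes called in that direction and 0.0488% called lower. The members were picked with earlier results of these data known, so these counts describe them and test nothing.

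**Figure D2:**
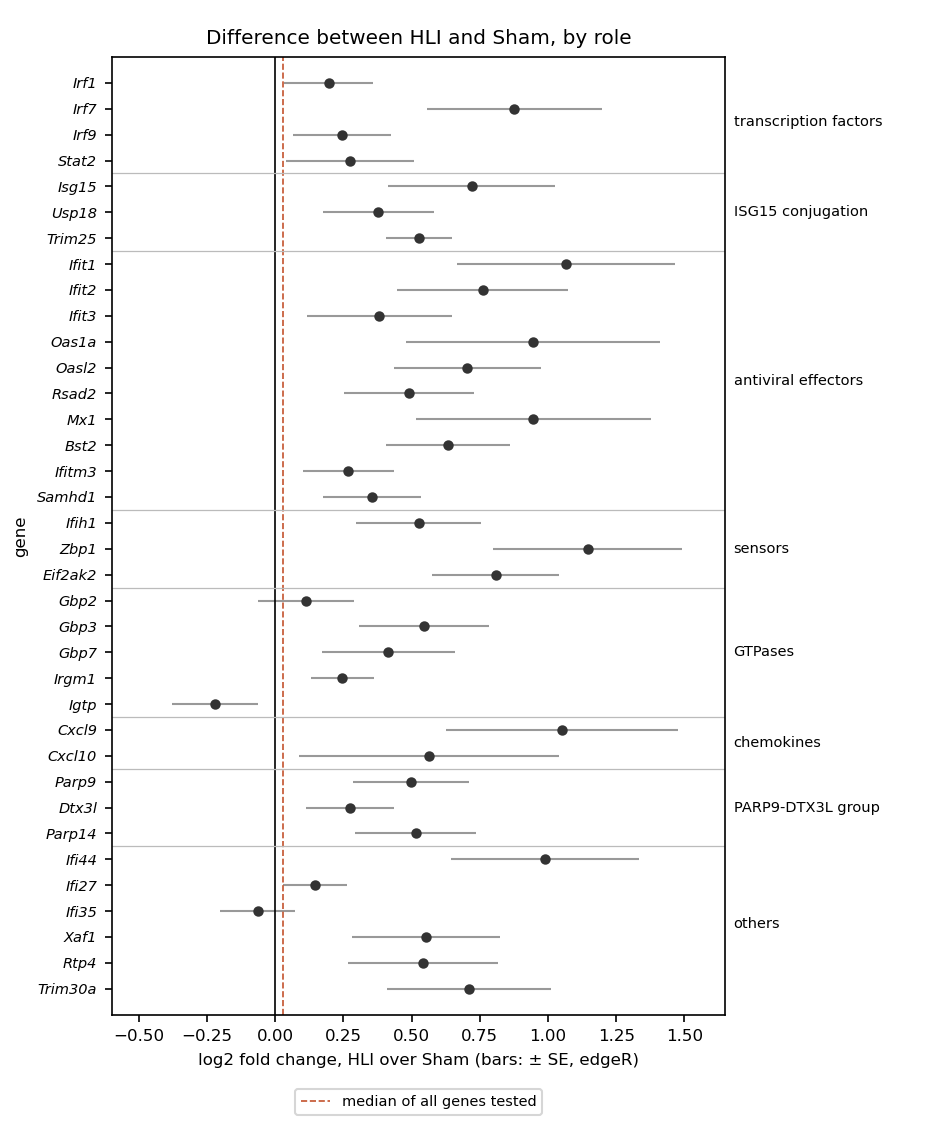
Log2 fold change of HLI over Sham for the 36 measured members, ordered by role, with the standard error of the edgeR fit as bars. The black line is 0 and the dashed line is the median of all genes tested, 0.029. Values run from -0.22 for Igtp to 1.15 for Zbp1, and 34 lie above 0.

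Within each group the libraries differed widely, and they did so in a similar order for most members. In every member the highest Sham library reached or passed the lowest HLI library, so the groups of 0 of 36 members were separate, against 0.776% of all genes separate with HLI higher and 0.873% with HLI lower. In 25 of 36 members 3 or more HLI libraries lay above every Sham library, against 19.1% of all genes. For 4 or more the count was 5 of 36, against 6.91% of all genes. Without Sham replicate 1 the counts were 31 of 36 for 3 or more, against 26.6% of all genes, and 20 of 36 for 4 or more, against 15.3%. Without Sham replicate 3 they were 27 of 36, against 27.2%, and 9 of 36, against 12.6%. In 25 of 36 members Sham replicate 1 exceeded the other 4 Sham libraries, against 24.4% of all genes. HLI replicate 3 was the highest HLI library in 21 of 36 members, against 25.2% of all genes. HLI replicate 4 was the lowest in 23 of 36, against 30.7%. HLI replicate 1 was the lowest HLI library in 10 of 36 members, a share near the 24.1% of all genes. Ifit2, Ifit3, Gbp3, Gbp7 and Cxcl9 were among those members. HLI replicate 1 was the highest HLI library in 5 of 36, among them Trim25, Oas1a, Samhd1 and Ifitm3, against 23.6% of all genes.

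**Figure D3:**
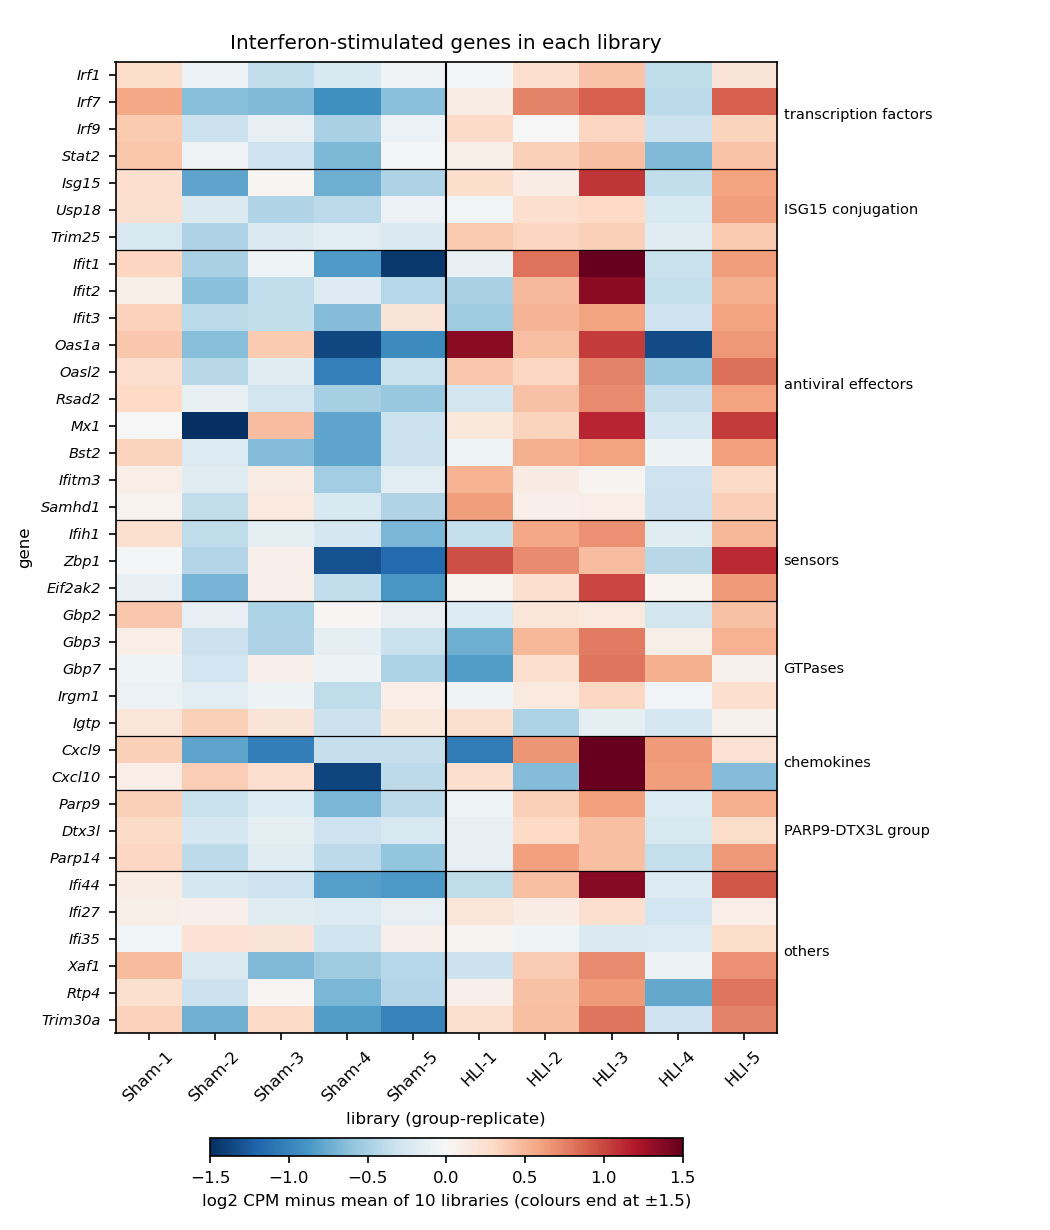
Log2 CPM of the 36 members in each of the 10 libraries, centred per gene, with genes in rows by role and libraries in columns. Red is above and blue below the mean, and colours end at 1.5 in either direction. Sham replicate 1 and HLI replicates 2, 3 and 5 are mostly red. Sham replicates 2, 4 and 5 and HLI replicate 4 are mostly blue.

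A score per library, the average over the 36 members of log2 CPM after centring each gene on its 10 libraries, puts this order in numbers. It was 0.20, -0.35, -0.15, -0.55 and -0.40 in Sham replicates 1 to 5. In HLI replicates 1 to 5 it was 0.01, 0.31, 0.67, -0.24 and 0.49. HLI replicates 2, 3 and 5 lay above every Sham library, HLI replicate 1 lay below Sham replicate 1, and HLI replicate 4 lay below Sham replicates 1 and 3. Without Sham replicate 1 the median log2 fold change of the members was 0.66 and 23 of 36 were higher at an unadjusted p under 0.05, against 13.3% of all genes. Without HLI replicate 4 the values were 0.61 and 26 of 36, against 16.7% of all genes, and without HLI replicate 3 they were 0.41 and 6 of 36, against 5.14%. Leaving out Sham replicate 2, Sham replicate 4 or HLI replicate 5 gave 8 of 36, against 5.74%, 6.48% and 8.09% of all genes. Leaving out Sham replicate 5 or HLI replicate 2 gave 10 of 36, against 6.02% and 9.61%.

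Among the transcription factors, Irf7 had the largest difference. Irf7 (ENSMUSG00000025498), the amplifier of type I interferon transcription, stood at 28.7, 12.3, 12.1, 10.1 and 12.3 CPM in Sham replicates 1 to 5 and at 20.6, 32.1, 35.6, 14.4 and 35.7 CPM in HLI replicates 1 to 5. Sham replicate 1 stood far above the other Sham libraries and overlapped the HLI range, and HLI replicate 4 came closest to the other Sham libraries. Group values were 15.1 ± 7.66 and 27.7 ± 9.65 CPM (SD, n = 5), and the fold change on the log2 scale was 0.88 (SE 0.32; edgeR, adjusted p = 0.29). Leaving out Sham replicate 1 gave 1.24. Components of the interferon signal itself were closer between groups. Stat2 (ENSMUSG00000040033), a subunit of the ISRE-binding complex, had 23.9, 17.2, 14.3, 11.1 and 17.4 CPM in Sham and 19.0, 22.8, 24.3, 11.2 and 24.1 CPM in HLI. Its lowest HLI library was level with its lowest Sham library, and the log2 fold change was 0.27 (SE 0.23; edgeR, adjusted p = 0.50). Irf9 (ENSMUSG00000002325), the DNA-binding subunit of that complex, had 27.9, 17.0, 19.6, 15.1 and 20.0 CPM in Sham and 26.0, 21.4, 26.6, 17.0 and 26.8 CPM in HLI. No HLI library passed Sham replicate 1, and the log2 fold change was 0.24 (SE 0.18). Irf1, a factor induced early by interferon gamma, had group values of 21.0 ± 3.67 and 24.0 ± 4.89 CPM (SD, n = 5).

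The ISG15 system attaches the ubiquitin-like protein ISG15 to other proteins. Trim25 (ENSMUSG00000000275), a ubiquitin and ISG15 ligase that also acts on the RNA sensor RIG-I, was the member with the smallest p. It had 35.9, 30.9, 36.6, 38.0 and 36.6 CPM in Sham, a narrow range, and 55.8, 53.0, 54.4, 37.5 and 55.8 CPM in HLI. HLI replicate 4 alone lay within the Sham range, and the other HLI libraries lay well above it. The log2 fold change was 0.53 (SE 0.12, edgeR unadjusted p = 0.0010, adjusted p = 0.29). DESeq2 gave an adjusted p of 0.0498, and over the 18 alternatives the adjusted p ran from 0.0498 to 0.57. Isg15 (ENSMUSG00000035692) itself had 4.21, 1.99, 3.59, 2.06 and 2.52 CPM in Sham and 4.24, 3.81, 7.49, 2.69 and 5.38 CPM in HLI. Its groups overlapped through Sham replicates 1 and 3 and HLI replicates 2 and 4, and the log2 fold change was 0.72 (SE 0.31; adjusted p = 0.29). Usp18, which removes ISG15 and dampens the type I receptor, had 4.73 ± 0.964 and 6.14 ± 1.43 CPM (SD, n = 5).

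**Figure D4:**
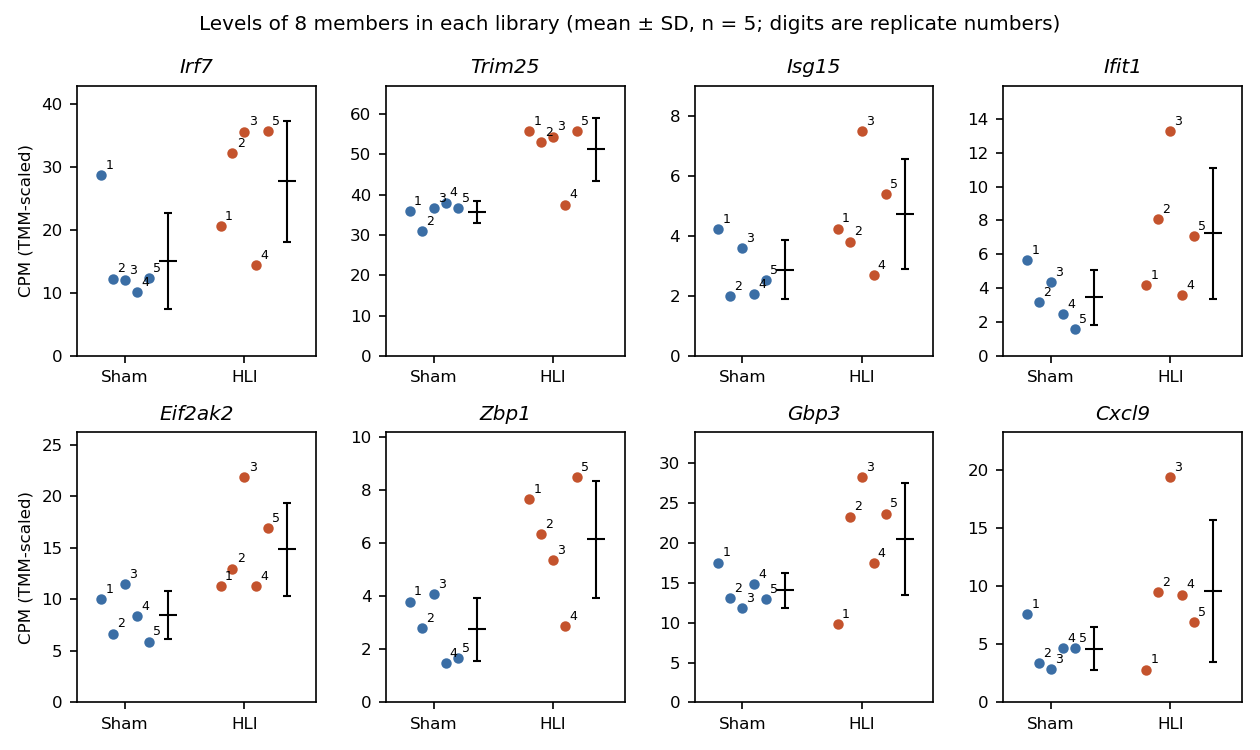
CPM of 8 members in each library, with Sham in blue and HLI in orange. Digits give the replicate number, and the black bar beside each group is the mean ± SD of 5 libraries. In Trim25 and Zbp1, HLI replicate 4 is the only HLI library inside the Sham range, and in Gbp3 and Cxcl9 HLI replicate 1 lies below every Sham library.

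All 10 measured antiviral effectors had fold changes above 0, against 53.8% of all genes, with a median log2 value of 0.67. At an unadjusted p under 0.05, 5 were higher, against 10.7% of all genes. That count was 1 without HLI replicate 3, against 5.14% of all genes, and 9 without HLI replicate 4, against 16.7%. Ifit1 (ENSMUSG00000034459), which binds the ends of foreign RNA and blocks its translation, had 5.68, 3.20, 4.34, 2.46 and 1.59 CPM in Sham and 4.19, 8.08, 13.3, 3.57 and 7.07 CPM in HLI. HLI replicates 2, 3 and 5 lay above every Sham library and HLI replicates 1 and 4 within the Sham range, and the log2 fold change was 1.07 (SE 0.40; edgeR, adjusted p = 0.29). For its relatives Ifit2 and Ifit3 the values were 0.76 (SE 0.31) and 0.38 (SE 0.27). Bst2 (ENSMUSG00000046718), which encodes the tetherin that holds budding virus at the cell surface, had 19.8, 13.6, 9.97, 8.98 and 12.5 CPM in Sham and 15, 22.7, 23.9, 14.9 and 24.1 CPM in HLI. Sham replicate 1 was the single Sham library that reached the HLI range, and the log2 fold change was 0.63 (SE 0.23, adjusted p = 0.29). The oligoadenylate synthetase gene Oas1a, whose product activates RNase L, had a wide spread of HLI values, from 2.46 CPM in replicate 4 to 16.5 CPM in replicate 1, against 2.40 to 8.48 CPM in Sham. Oasl2, a synthetase-like gene, had 15.6 ± 4.80 and 25.3 ± 8.25 CPM, and Rsad2, which encodes viperin, had 12.2 ± 3.15 and 17.1 ± 5.53 CPM (SD, n = 5). Mx1, a dynamin-like GTPase gene, was the lowest member per length, at 1.10 ± 0.590 TPM in Sham and 2.15 ± 1.01 TPM in HLI, and its 9 to 83 counts per library limit the precision. Ifitm3, which blocks entry of virus through endosomes, was the highest, at 203 ± 47.9 and 282 ± 72.5 TPM. Samhd1, a nucleotide triphosphohydrolase gene, had 60.8 ± 11.2 and 77.7 ± 18.9 CPM. Both Ifitm3 and Samhd1 were highest in HLI replicate 1, at 125 and 104 CPM.

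The 3 sensors of nucleic acid were all higher at an unadjusted p under 0.05, against 10.7% of all genes. With any 1 library left out, 2 or 3 of them were, against 5.14% to 16.7% of all genes. Zbp1 (ENSMUSG00000027514), a sensor of Z-form nucleic acid, had 3.80, 2.81, 4.07, 1.49 and 1.66 CPM in Sham and 7.66, 6.35, 5.35, 2.87 and 8.48 CPM in HLI. HLI replicate 4 was the single HLI library within the Sham range, and the log2 fold change was 1.15 (SE 0.35; edgeR, adjusted p = 0.29), the largest of the set. Eif2ak2 (ENSMUSG00000024079), which encodes the kinase PKR that halts translation on double-stranded RNA, had 10.0, 6.68, 11.5, 8.41 and 5.90 CPM in Sham and 11.3, 13.0, 21.8, 11.3 and 17.0 CPM in HLI. The overlap was slight, with HLI replicates 1 and 4 just below Sham replicate 3, and the log2 fold change was 0.81 (SE 0.23, adjusted p = 0.29). Ifih1, which encodes the long-RNA sensor MDA5, had 13.7 ± 3.32 and 19.8 ± 6.06 CPM (SD, n = 5), with HLI replicates 1 and 4 inside the Sham range.

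The interferon-inducible GTPases, which attack the vacuoles of intracellular microbes and are typical of the gamma response, had a median log2 fold change of 0.25. That was the lowest among the 8 roles, nearly level with 0.26 for the transcription factors. At an unadjusted p under 0.05, 1 of 5 was higher, against 10.7% of all genes. That count ran from 0 to 3 with 1 library left out, against 5.14% to 16.7% of all genes. It was highest without HLI replicate 1, where the share of all genes was 11.2%. Gbp3 (ENSMUSG00000028268) had 17.6, 13.1, 11.8, 14.9 and 13.0 CPM in Sham and 9.86, 23.3, 28.2, 17.5 and 23.7 CPM in HLI. HLI replicate 1 lay below every Sham library and HLI replicate 4 at the top of the Sham range, and the log2 fold change was 0.55 (SE 0.24; edgeR, adjusted p = 0.29). Gbp7 showed the same low value in HLI replicate 1, at 11.7 CPM against 15 to 22.1 CPM in Sham and 22.0 to 36.6 CPM in the other HLI libraries. Irgm1 (ENSMUSG00000046879), a regulator of the immunity-related GTPases, had 25.8, 24.4, 26.1, 21.1 and 29.4 CPM in Sham and 26.5, 30.5, 34.0, 26.6 and 32.7 CPM in HLI. Its HLI range began within the Sham range, and the difference was small at a log2 value of 0.25 (SE 0.12). Gbp2 had 30.0 ± 6.83 and 32.4 ± 6.60 CPM (SD, n = 5). Igtp, a GTPase of the same family as Irgm1, had the lowest fold change of the set, at a log2 value of -0.22 (SE 0.16, adjusted p = 0.43), with 14.5 to 23.2 CPM in Sham and 13.0 to 21.4 CPM in HLI.

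Both chemokines of the set attract CXCR3-bearing T and NK cells and are induced by interferon gamma. Cxcl9 (ENSMUSG00000029417) had 7.61, 3.39, 2.84, 4.63 and 4.64 CPM in Sham and 2.81, 9.47, 19.3, 9.25 and 6.90 CPM in HLI. HLI replicate 1 was lower than every Sham library, HLI replicate 5 was below Sham replicate 1, and HLI replicates 2, 3 and 4 were above all Sham libraries. The log2 fold change was 1.05 (SE 0.43, edgeR adjusted p = 0.29). Cxcl10 (ENSMUSG00000034855) had 1.64, 1.99, 1.82, 0.515 and 1.13 CPM in Sham and 1.82, 0.923, 4.43, 2.40 and 0.924 CPM in HLI. Its groups overlapped widely, its counts ran from 9 to 91 per library, and the log2 fold change of 0.56 (SE 0.48) shrank to 0.088 without HLI replicate 3, the lowest value among its alternatives.

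Parp9, Dtx3l and Parp14 lie next to each other in RefSeq, and PARP9 and DTX3L form a ubiquitin ligase complex. Parp9 (ENSMUSG00000022906) had 27.6, 17.1, 18.8, 13.4 and 16.4 CPM in Sham and 20.7, 27.7, 33.0, 18.6 and 31.6 CPM in HLI. Parp14 (ENSMUSG00000034422), an ADP-ribosyltransferase gene, had 52.3, 31.9, 37, 32.0 and 27.9 CPM in Sham and 38.5, 64.1, 57.5, 32.8 and 65.7 CPM in HLI. In both, HLI replicates 2, 3 and 5 lay above every Sham library and HLI replicates 1 and 4 below Sham replicate 1. Their log2 fold changes were 0.50 (SE 0.21) and 0.51 (SE 0.22), and that of Dtx3l was 0.27 (SE 0.16). The edgeR adjusted p of the 3 genes lay between 0.29 and 0.36.

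Of the other 6 members, 2 were higher at an unadjusted p under 0.05, against 10.7% of all genes. With 1 library left out, 1 to 4 were, against 5.14% to 16.7% of all genes. Ifi44 (ENSMUSG00000028037), a type I interferon response gene, had 4.92, 3.78, 3.64, 2.52 and 2.45 CPM in Sham and 3.47, 6.29, 11.9, 3.92 and 8.75 CPM in HLI. HLI replicates 1 and 4 were inside the Sham range, and the log2 fold change was 0.99 (SE 0.34, edgeR adjusted p = 0.29). Trim30a (ENSMUSG00000030921), a dampener of Toll-like receptor signalling, had 20.4, 9.74, 19.6, 8.92 and 7.95 CPM in Sham and 19.1, 21.9, 28.2, 12.9 and 26.9 CPM in HLI. Sham replicates 1 and 3 were far above the other Sham libraries and overlapped HLI replicates 1 and 4, and the log2 fold change was 0.71 (SE 0.30). Xaf1, which encodes a binding partner of the apoptosis inhibitor XIAP, and Rtp4 had log2 fold changes of 0.55 and 0.54 (SE 0.27 for both). Ifi27 was at 29.1 ± 2.86 and 32.2 ± 4.28 CPM and Ifi35 at 16.5 ± 2.30 and 15.7 ± 2.29 CPM (SD, n = 5). The log2 fold change of Ifi35 was -0.065 (SE 0.14), and 0.14 by log2(TPM + 1), a scale on which all genes had a median of 0.19.

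The interferon genes themselves were almost without counts. Of 13 ligand genes listed, 11 were at 0 in every library, Ifnb1 and the 6 listed alpha interferon genes (Ifna1, Ifna2, Ifna4, Ifna5, Ifna6 and Ifnab) among them. A count of 0 allows up to 3 counts, or 0.145 to 0.199 CPM depending on the library, so their transcripts were not detectable at this depth. Ifng, the gene of interferon gamma, had 3 counts over the 5 Sham libraries, all in replicate 4, and 12 over the 5 HLI libraries, with 1, 2, 3, 0 and 6 in replicates 1 to 5. Those counts are too few for a fold.

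Receptor, sensor and signalling genes mostly stood higher in HLI as well, and none passed the test. Of 44 genes listed for ligands, receptors, sensors and signalling, 30 passed the filter and 0 passed the edgeR test. Fold changes were above 0 in 25, against 53.8% of all genes, with a median log2 value of 0.40. At an unadjusted p under 0.05, 12 of the 30 were higher and 1 was lower, against 10.7% and 6.15% of all genes. The 12 became 8 without Sham replicate 2 or HLI replicate 3, against 5.74% and 5.14% of all genes. They became 18 without Sham replicate 1 or HLI replicate 4, against 13.3% and 16.7%. The type I receptor genes Ifnar1 and Ifnar2 had 44.1 ± 9.20 and 25.7 ± 3.77 CPM in Sham and 55.3 ± 12.5 and 34.4 ± 8.04 CPM in HLI (SD, n = 5). Those of the gamma receptor, Ifngr1 and Ifngr2, differed by 0.17 (SE 0.14) and -0.17 (SE 0.11) on the log2 scale, and the value of Ifngr2 was 0.024 by log2(TPM + 1). The 4 smallest p-values of this list belonged to Ticam1, Aim2, Irf8 and Dhx58. Aim2, a sensor of cytosolic DNA, had 1.57 ± 0.558 and 3.32 ± 1.06 CPM, and its lowest HLI library and highest Sham library, both at 2.34 CPM, barely missed each other. Irf8, a transcription factor of monocytes and dendritic cells, had 12.5 ± 3.76 and 23.0 ± 7.40 CPM. Ticam1, the TLR3 adaptor gene, had 7.08 ± 1.16 and 10.5 ± 1.75 CPM, and Dhx58, which encodes the RIG-I-like protein LGP2, had 3.27 ± 0.854 and 6.32 ± 2.68 CPM. Mavs, the adaptor of RIG-I and MDA5, was the single gene lower at that threshold, with 59.5 ± 6.19 and 46.7 ± 8.27 CPM and 32.7 CPM in HLI replicate 3.

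A further list of 80 interferon-stimulated genes outside the set, also chosen with earlier results known, showed a similar median. Of 78 in the table, 70 passed the filter and 0 passed the edgeR test. Fold changes were above 0 in 62, against 53.8% of all genes, and below 0 in 8. The median log2 value was 0.49, with a range from -0.27 for Tgtp1 to 1.64 for Slfn9. Relatives of the members were among the low values, with Gbp6 at -0.12, Irgm2 at -0.18 and Ifit3b at -0.064. At an unadjusted p under 0.05, 31 were higher and 0 were lower, or 44.3% against 10.7% of all genes. Dropping HLI replicate 4 gave 44, against 16.7% of all genes, and dropping HLI replicate 3 gave 13, against 5.14%. Dropping Sham replicate 2 or HLI replicate 5 gave 15, against 5.74% and 8.09% of all genes. Without Sham replicate 4 or Sham replicate 5 the count was 17, against 6.48% and 6.02%. Without HLI replicate 2 it was 20, against 9.61%. Mov10, an RNA helicase gene, stood at 5.13 ± 0.916 CPM in Sham against 8.76 ± 2.10 CPM in HLI (SD, n = 5). Uba7, which activates ISG15 for conjugation, had 9.34 ± 1.58 and 13.5 ± 2.46 CPM. Mndal, a member of the AIM2-like family, had 8.53 ± 1.94 and 18.0 ± 8.91 CPM and reached 33.2 CPM in HLI replicate 3, and Epsti1 had 6.54 ± 2.35 and 13.3 ± 5.12 CPM. Score values of this list followed those of the set, from -0.51 to 0.15 in Sham, highest in replicate 1, and at 0.14, 0.31, 0.62, -0.33 and 0.50 in HLI replicates 1 to 5.

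Several lists of immune cell markers varied in part along with the set, and their part in these values was not tested. All 12 monocyte and macrophage markers were detected and had fold changes above 0, against 53.8% of all genes. They summed to 631.6 to 1615 CPM in Sham and 845.1 to 3401 CPM in HLI. Their score was 1.37, 0.10, 0.98, -0.73 and 0.47 in HLI replicates 1 to 5, so HLI replicate 1, highest in macrophage markers, was below HLI replicates 2, 3 and 5 in the score of the set. T and NK cell markers summed to 3.91 to 13.6 CPM in Sham and 8.65 to 39.6 CPM in HLI, and 8 of 12 passed the filter. Their score was 0.51 in Sham replicate 1 and -1.29 to -0.61 in the other Sham libraries, and -0.17, 0.70, 1.70, 0.33 and 0.97 in HLI replicates 1 to 5. In this score, as in that of the set, HLI replicates 3, 5 and 2 were highest, followed by Sham replicate 1. HLI replicate 4 was above 0 in the T and NK cell score and at -0.24 in the score of the set. Dendritic cell markers, 7 detected and 6 past the filter, summed to 20.0 to 31.3 CPM in Sham and 22.7 to 54.6 CPM in HLI. Their score was 0.31 in Sham replicate 1 and -0.77 to -0.28 in the other Sham libraries. In HLI replicates 1 to 5 it was -0.35, 0.36, 0.80, 0.17 and 0.47, so HLI replicates 3, 5 and 2 and then Sham replicate 1 were again highest. Neutrophil markers had a score of 2.39 in HLI replicate 1 and 1.90 in Sham replicate 3, and of -1.65 to 0.44 in the other libraries. For B cell markers the sums were 0.515 to 4.74 CPM in Sham and 2.43 to 5.60 CPM in HLI. Fibroblast markers reached 14866 CPM in HLI replicate 3 and 4126 CPM in HLI replicate 4, against 5419 to 7901 CPM in Sham. Endothelial markers had scores of -0.40 to 0.34 in Sham and -0.29 to 0.32 in HLI, and adipocyte markers, summed, ranged from 93.0 to 175 CPM in Sham and from 15.2 to 146 CPM in HLI. Skeletal muscle fibre markers had scores of 0.10, 0.34, 0.004, 0.31 and 0.39 in Sham replicates 1 to 5. In HLI replicates 1 to 5 their scores were -0.31, 0.02, -0.96, 0.33 and -0.22. Among the lists other than macrophages, fold changes of genes past the filter were above 0 in 8 of 8 T and NK cell markers. They were above 0 in 6 of 6 dendritic cell, 2 of 2 B cell, 5 of 7 endothelial and 4 of 5 fibroblast markers. For neutrophil, fibre and adipocyte markers the counts were 2 of 5, 1 of 10 and 0 of 4, each against 53.8% of all genes. No marker of these lists was at 0 in every library.

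**Figure D5:**
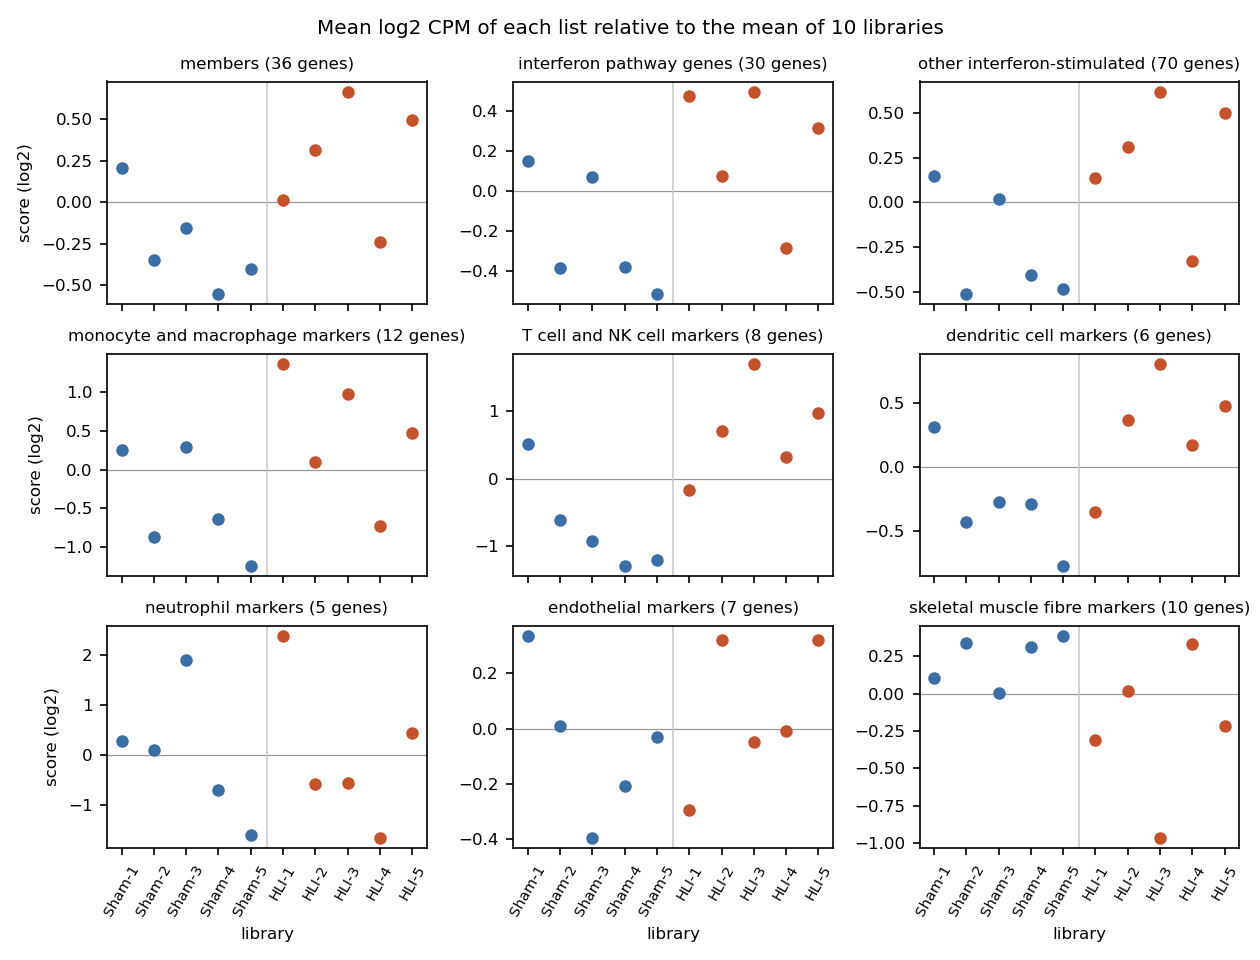
Score of each list in each library, the average log2 CPM of its genes, each centred on the 10 libraries, with Sham in blue and HLI in orange. The y axes differ between panels. The set is highest in HLI replicate 3 at 0.67 and lowest in Sham replicate 4 at -0.55, while macrophage markers are highest in HLI replicate 1 at 1.37.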

How the data were processed

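Poly(A) RNA of 5 Sham and 5 HLI muscle samples was sequenced as paired-end libraries, per the labels' protocols, which differ from the series text on the reagent and the company and mention adipose material. The authors deposited estimated counts, which are not normalized, and TPM values for 21956 genes, per the file headers. Tools named in the submitters' processing notes are HISAT2 2.0 and Bowtie 0.12.2, with build mm8. How reads were counted, and whether strand was used, is not given in the sources used here. Values of near-identical copies (Oas1a and Oas1g, Ifit3 and Ifit3b, the Gbp genes) and of overlapping genes are therefore uncertain. The members and lists were chosen with earlier results of these data known.

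Estimated counts were rounded and tested in R 4.3.3 with edgeR 4.0.16 (quasi-likelihood test, TMM, filterByExpr with a minimum count of 10 and total of 15, Benjamini-Hochberg adjustment over 13404 genes, threshold 0.05). Standard errors are the fold change divided by the root of the F statistic. Scores use log2 CPM with a prior count of 2. Named in detail were the 2 members of each role with the smallest unadjusted p, with Irf7, Stat2, Isg15, Ifit1, Cxcl9 and Cxcl10, and the 4 genes of each further list with the smallest p, with Ifng, Ifnb1 and the receptor genes. One further gene of that rule is not reported here. Other genes were named after their values were seen. Alternatives were DESeq2 1.42.0, its size factors, a robust prior, no filter, the replicate block, limma 3.58.1 on log2(TPM + 1) and log2(TPM + 0.1), TPM scaled by median of ratios, and each library left out. The fits were tested on simulated data. Promoter motifs were matched in Python 3.11.15.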

Additional observations from a re-analysis of the deposited data

Results flagged for a closer look

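In 5 of 100 groups of 5 libraries that were examined, 1 library stood apart from the other 4 by Dixon's ratio of gap to range, above the critical value of 0.71, and chance flags about 1 in 20. Sham replicate 1 was the high library in 3 of them. It had 28.7 CPM of Irf7 against 10.1 to 12.3 CPM in the other Sham libraries, 38.7 CPM of Dtx3l against 25.6 to 28.8 CPM, and 12.1 CPM of Uba7 against 8.33 to 9.38 CPM. HLI replicate 4 was low in Trim25, at 37.5 CPM against 53.0 to 55.8 CPM in the other HLI libraries. HLI replicate 3 was high in Mndal, at 33.2 CPM against 9.70 to 16.5 CPM.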

How the results depend on the processing

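Under the 18 alternatives, 877 of 882 single-gene results kept their direction and their side of the threshold. The main fit called 0 genes, and DESeq2 was the single alternative that called any. The side of the threshold could therefore change in DESeq2 alone, and the alternatives reuse the same libraries. DESeq2 called 45 of all genes and 1 member, Trim25 (log2 fold change 0.51, adjusted p = 0.0498), where edgeR called 0 with 2262 genes at an unadjusted p under 0.05. On unscaled log2(TPM + 1) and log2(TPM + 0.1), which move the median of all genes to 0.19 and 0.21, Ifi35 was at 0.14 in both and Ifngr2 at 0.024 in both, opposite in sign to the edgeR fit. With each library left out, 6 to 26 members were higher in HLI at an unadjusted p under 0.05, against 5.14% to 16.7% of all genes. That count was added after seeing the data, like the matching counts of roles and other lists. In these fits 0 members were called. The number of members above 0 was 34 or 35 in every alternative, and their median log2 fold change ran from 0.41 to 0.67. Both upper values were reached on unscaled log2(TPM + 0.1). Above the all-gene median of each fit lay 33 or 34 members, and the median of the members exceeded it by 0.38 to 0.62. Samples with the same replicate number correlated in their deviations from the group means at -0.0090 to 0.28 over all genes, 2 of 5 Sham libraries correlated best with their own number, and nothing in the labels pairs them. With the replicate block 0 genes were called, and the median of the members was 0.49. In that fit 15 members were higher at an unadjusted p under 0.05, against 12.8% of all genes. Low counts limit Mx1, Cxcl10 and the interferon genes.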
